A study of Mus musculus with 6 samples.

Results

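The BCL2 family decides whether a cell commits to mitochondrial apoptosis, and 10 of its genes were followed in pancreatic islets of Pax8 +/- and Wt mice. They were chosen by gene name: the anti-apoptotic Bcl2, Bcl2l1 (BCL-XL) and Mcl1, the effectors Bax and Bak1, and the BH3-only genes Bad, Bid, Bbc3 (PUMA), Pmaip1 (NOXA) and Bcl2l11 (BIM). Of these, 9 were matched to a probe set among 22206 gene probe sets, each to 1 probe set. No probe set was matched to Bax, which is therefore not analysed here.

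Islets were compared on 3 Pax8 +/- and 3 Wt arrays (mouse Clariom S), with Wt labelled as Control in the samples. Pax8 +/- mice carry 1 disrupted germline copy of Pax8, a transcription factor of the thyroid, and were studied as a model of mild hypothyroidism. By the methods of the study all mice were males on a C57BL/6 background, and no treatment is labelled for any array. The mice were killed at 9 months of age, after a fast. Islets were released with collagenase and picked by hand. The methods of the study count the 3 arrays of each genotype as biological replicates, and whether islets of several mice were pooled for an array is not stated in the sources used here.

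As background, BAX and BAK1 are the proteins that perforate the outer mitochondrial membrane, which lets cytochrome c escape and start the caspases. BCL2, BCL-XL and MCL1 hold them in check, and BH3-only proteins, switched on by stress, either block these guardians or activate BAX and BAK1 directly. In beta cells BCL-XL and MCL1 are known as survival factors, while PUMA, BIM and NOXA are known to mediate death under endoplasmic reticulum stress and cytokines. Much of this control acts on the proteins, which arrays do not measure.

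Values are log2 levels as the authors deposited them, so that 1 unit is a factor of 2. A probe set was taken as above background on an array when it exceeded the 95th percentile reached there by the 5222 negative controls, which was 7.77 to 7.86 on the Pax8 +/- arrays and 7.60 to 7.97 on the Wt arrays. Between 26.6% and 28.2% of gene probe sets met this on a Pax8 +/- array and between 25.3% and 29.5% on a Wt array, with 21.7% doing so on all 6. Pax8 itself was at 4.59, 4.58 and 5.02 on the Pax8 +/- arrays and at 4.66, 5.05 and 4.74 on the Wt arrays, below background on every array, and gives no check of the genotype labels. Ins2, Gcg and Amy2a5 (insulin, glucagon and amylase) were near the top of the scale everywhere, from 19.88 to 19.93, so that endocrine and acinar RNA were both present. Pax8 +/- replicate 1 lay within the range of the Wt arrays for 55.8% of all gene probe sets and for 6 of the 9 members.

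Only Bcl2l1 and Mcl1, both anti-apoptotic, were above background, on all 6 arrays each, while Bcl2, Bak1 and the 5 BH3-only genes were above it on none. A share of 2 in 9 is close to that of all gene probe sets. Negative controls have a long upper tail: Bcl2l1 lay above 95.9% to 98.6% of them and Mcl1 above 98.6% to 99%, and neither exceeded the 99th percentile on any array. A level under background does not show that the transcript was absent, and the size of a difference there is not exact. Groups were compared with limma over all 22206 probe sets, and a gene was called at the thresholds of the study, a difference of at least 2.5-fold with an unadjusted p of at most 0.05.

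No member was called. Over all probe sets, 0.648% were called higher and 0.351% lower in Pax8 +/- islets, and 0% had an adjusted p under 0.05 (smallest adjusted p = 0.745 from limma). At an unadjusted p of at most 0.05 alone, 0 members were higher and 0 lower, where 3.14% and 2.77% of all probe sets were. Of the 9 members, 6 had a lower and 3 a higher mean in Pax8 +/- islets, with a median log2 difference of -0.15, beside -0.007 over all probe sets, of which 50.8% had a lower mean. The smallest p that an exact permutation of 3 against 3 arrays allows is 0.1 (2-sided).

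**Figure D1:**
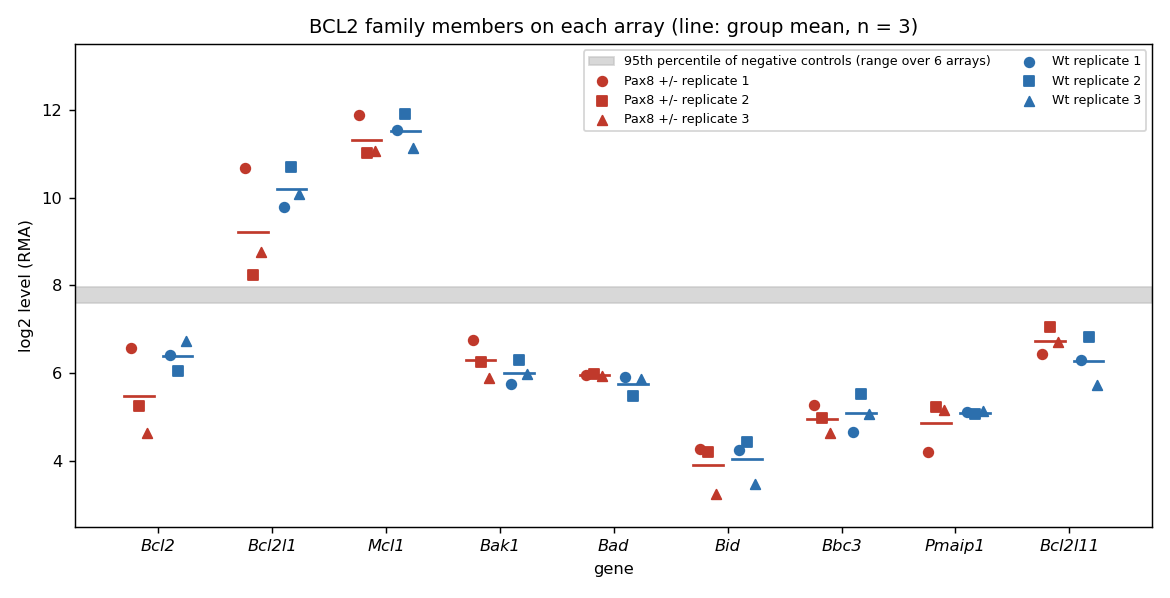
Log2 level (vertical axis) of the 9 measured members on each array, with 3 Pax8 +/- arrays (red) to the left of 3 Wt arrays (blue), group means as lines and the range of the background level over the 6 arrays as a grey band. Bcl2l1 and Mcl1 lie above the band on all 6 arrays and the other 7 below it, and for Bcl2l1 and Bcl2 the Pax8 +/- replicates 2 and 3 lie under every other array.

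Bcl2l1 (Entrez Gene 12048), which encodes the membrane guardian BCL-XL, spanned 2.45 log2 units over the 6 arrays, the wider of the ranges of the members above background. It stood at 10.67, 8.23 and 8.76 on Pax8 +/- replicates 1, 2 and 3 and at 9.79, 10.69 and 10.08 on the Wt arrays. Pax8 +/- replicates 2 and 3 were lower than all Wt arrays, and Pax8 +/- replicate 1 was just under the highest Wt array, so that the groups overlapped. The means were 9.22 ± 1.28 (SD, n = 3) in Pax8 +/- and 10.19 ± 0.46 (SD, n = 3) in Wt islets, a log2 difference of -0.97 (standard error 0.59, 95% interval -2.32 to 0.39, adjusted p = 0.754 from limma). The difference is smaller than the SD of the Pax8 +/- arrays. Without Pax8 +/- replicate 1 it was -1.69, past the thresholds of the study (unadjusted p = 0.00128, adjusted p = 0.0845 from limma), and over the leave-outs of each array it ran from -1.69 to -0.47. Without that replicate, calls also rose over all 22206 probe sets, to 597 lower and 740 higher from 78 and 144. With a Tukey biweight as group average on all 6 arrays, the log2 difference of Bcl2l1 was -1.41, past 2.5-fold. It was not called, as the unadjusted p was 0.139 from limma.

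Mcl1 (Entrez Gene 17210), whose short-lived protein needs constant synthesis, stood at 11.89, 11.01 and 11.07 on the Pax8 +/- arrays and at 11.53, 11.91 and 11.14 on the Wt arrays. Its order of arrays resembled that of Bcl2l1, with Pax8 +/- replicates 2 and 3 at the bottom and Pax8 +/- replicate 1 beside Wt replicate 2 at the top, over a narrower range of 0.90. Means were 11.32 ± 0.49 (SD, n = 3) in Pax8 +/- and 11.53 ± 0.38 (SD, n = 3) in Wt islets. The log2 difference was -0.21 (standard error 0.34, 95% interval -0.98 to 0.56, adjusted p = 0.902 from limma), so that a change of 2-fold or more either way lies outside this interval. By comparison, probe sets above background on all 6 arrays had a median range of 1.08.

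Bcl2 (Entrez Gene 12043), the founding member of the family, was below background throughout. Its levels were 6.57, 5.25 and 4.63 on the Pax8 +/- arrays and 6.41, 6.05 and 6.73 on the Wt arrays. Again replicates 2 and 3 of Pax8 +/- were under every Wt array and replicate 1 was among them. Its means were 5.48 ± 0.99 (SD, n = 3) in Pax8 +/- and 6.40 ± 0.34 (SD, n = 3) in Wt islets, with a log2 difference of -0.92 (standard error 0.48, 95% interval -2.01 to 0.17, adjusted p = 0.745 from limma). Without Pax8 +/- replicate 1 the difference was -1.46, also past the thresholds of the study (unadjusted p = 0.00234, adjusted p = 0.0969 from limma), as were 597 of all 22206 probe sets in the lower direction.

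For all 3 anti-apoptotic members the lowest arrays were thus Pax8 +/- replicates 2 and 3, and for 0 of the 6 other members. The 6 others, like Bcl2, were below background on every array. For Mcl1 the margin was small, with Pax8 +/- replicate 3 at 11.07 and Wt replicate 3 at 11.14. This order of arrays was noticed after the values were seen. It held for 13.3% of all gene probe sets, and for 22.5% of those above background on all 6 arrays, while for 20.4% of those above background these arrays were the highest.

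The upstream sequences of Bcl2l1 and Mcl1, the members above background, are shown with that of Bnip3, the relative with a similar order of arrays described further on. The 250 bases before the transcription start come from RefSeq (GRCm38.p6), chr2:152831729-152831978 (minus strand, the outermost of 3 annotated starts) for Bcl2l1, chr3:95658471-95658720 (plus strand) for Mcl1 and chr7:138909507-138909756 (minus strand) for Bnip3. Capitals mark matches on either strand to ACGTG and GCGTG, the cores of hypoxia response elements, AGGTCA, the core of thyroid hormone receptor sites, TGACGTCA, the cyclic AMP response element, GGGCGG, the GC box, TATAAA and CCAAT.
Bcl2l1: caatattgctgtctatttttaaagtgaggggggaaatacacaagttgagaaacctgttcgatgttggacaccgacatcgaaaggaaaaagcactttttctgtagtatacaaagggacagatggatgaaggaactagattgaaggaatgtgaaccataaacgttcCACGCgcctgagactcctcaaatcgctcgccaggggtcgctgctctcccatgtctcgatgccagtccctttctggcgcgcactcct
Mcl1: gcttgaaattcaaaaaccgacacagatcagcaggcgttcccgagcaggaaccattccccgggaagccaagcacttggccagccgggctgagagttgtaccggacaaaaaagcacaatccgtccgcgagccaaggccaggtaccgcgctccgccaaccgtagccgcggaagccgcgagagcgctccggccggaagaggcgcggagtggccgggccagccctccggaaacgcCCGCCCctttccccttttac
Bnip3: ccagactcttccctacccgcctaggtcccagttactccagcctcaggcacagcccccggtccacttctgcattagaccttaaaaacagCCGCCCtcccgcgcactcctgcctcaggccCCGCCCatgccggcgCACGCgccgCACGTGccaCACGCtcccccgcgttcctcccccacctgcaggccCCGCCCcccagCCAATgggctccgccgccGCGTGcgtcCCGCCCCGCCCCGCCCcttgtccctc
The Bcl2l1 stretch held 1 GCGTG and the Mcl1 stretch 1 GGGCGG and no other match. Of the stretches before the other Bcl2l1 starts, which are not printed, the one at chr2:152828490-152828739 held 1 AGGTCA and the one at chr2:152830718-152830967 no match. The Bnip3 stretch held 2 matches to ACGTG, which are both strands of 1 palindrome, 3 to GCGTG, 6 to GGGCGG and 1 to CCAAT. Of 32851 RefSeq upstream stretches of this length, 16.6% held ACGTG, 28.2% GCGTG, 14.0% AGGTCA, 1.55% TGACGTCA, 32.7% GGGCGG, 12.4% TATAAA and 33.8% CCAAT. A match describes the letters and not binding of a factor.

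Bak1 (Entrez Gene 12018), the effector that was measured, was at 6.75, 6.25 and 5.88 on the Pax8 +/- arrays and at 5.76, 6.29 and 5.99 on the Wt arrays. The groups overlapped, with a log2 difference of 0.28 (standard error 0.30, 95% interval -0.42 to 0.98, adjusted p = 0.854 from limma). Pax8 +/- replicate 1 was the highest array and Wt replicate 1 the lowest.

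The BH3-only genes lay below background on all 6 arrays. Bcl2l11 (Entrez Gene 12125), whose product BIM binds every guardian, came nearest to it, at 6.43, 7.05 and 6.70 on the Pax8 +/- arrays and 6.30, 6.82 and 5.74 on the Wt arrays. Its mean was higher in Pax8 +/- islets by 0.44 (standard error 0.33, 95% interval -0.33 to 1.2, adjusted p = 0.791 from limma), with overlapping groups. Bad, a sensitizer that survival signalling keeps inactive by phosphorylation, was at 5.95, 5.97 and 5.94 on the Pax8 +/- arrays and 5.92, 5.47 and 5.86 on the Wt arrays. Every Pax8 +/- array was above every Wt array, but the lowest Pax8 +/- array, at 5.94, barely exceeded the highest Wt array, at 5.92. The difference was 0.20 (95% interval -0.36 to 0.76, adjusted p = 0.869 from limma), and Bad was the 1 member whose groups did not overlap in the higher direction, as did 4.52% of all probe sets, with 0 members and 5.14% of all probe sets in the lower direction.

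Bbc3, a p53 target whose product PUMA is a broad activator of BAX and BAK1, stood at 5.27, 4.98 and 4.63 on the Pax8 +/- arrays and at 4.66, 5.52 and 5.08 on the Wt arrays. Bid, which links death receptors to mitochondria once caspase-8 has cut it, was at 4.27, 4.20 and 3.24 on the Pax8 +/- arrays and 4.24, 4.43 and 3.48 on the Wt arrays, with replicate 3 the lowest in both groups. Pmaip1, whose product NOXA binds MCL1, was at 4.21, 5.22 and 5.15 on the Pax8 +/- arrays and between 5.06 and 5.13 on the Wt arrays. For Pmaip1 it was Pax8 +/- replicate 1 that stood apart, on the low side. Log2 differences were -0.13 for Bbc3, -0.15 for Bid and -0.24 for Pmaip1, and their 95% intervals lay within -1.01 and 0.72. Levels of Bid were above 26.3% to 52.9% of the negative controls, those of Pmaip1 above 48.4% to 72.2% and those of Bbc3 above 57.4% to 74.6%, so that little can be read from these genes.

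Further genes, of the family or named as interacting with BCL2 (as Bnip2 and Bnipl are), were read from a list of 18, all measured. Of these, Bcl2l2, Bnip3 and Bnip3l were above background on all 6 arrays. Bcl2l2, whose product BCL-W is another guardian, was at 8.82, 9.13 and 8.65 on the Pax8 +/- arrays and 8.92, 8.84 and 8.44 on the Wt arrays, a log2 difference of 0.14 (95% interval -0.47 to 0.74, adjusted p = 0.923 from limma). It lacked the low values of Pax8 +/- replicates 2 and 3 seen for Bcl2l1, and the sign of its difference turned with a Tukey biweight as group average (-0.03) and without Wt replicate 3 (-0.01).

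Bnip3 and Bnip3l (NIX), receptors that mark mitochondria for removal and known targets of the hypoxia-inducible factor, had the lowest values on Pax8 +/- replicates 2 and 3. Bnip3 was at 11.48, 9.09 and 8.49 on the Pax8 +/- arrays and 10.68, 11.08 and 11.36 on the Wt arrays. Bnip3l was at 11.70, 9.13 and 8.81 on the Pax8 +/- arrays and 11.35, 11.59 and 11.03 on the Wt arrays. On Pax8 +/- replicate 1 each was higher than on any Wt array, so that the groups overlapped, with log2 differences of -1.35 (standard error 0.69, 95% interval -2.93 to 0.22) for Bnip3 and -1.44 (standard error 0.68, 95% interval -3.00 to 0.12) for Bnip3l, each at adjusted p = 0.745 from limma. Neither was called in this fit. Without Pax8 +/- replicate 1 the differences were -2.25 (adjusted p = 0.0584 from limma) and -2.35 (adjusted p = 0.0447 from limma). Bnip3l was also called with array weights (-1.80) and in the fit with a replicate block (-1.44), and Bnip3 with array weights (-1.58). Of all 22206 probe sets, 597 were called lower without Pax8 +/- replicate 1, 306 with array weights and 145 with the block. These calls use the unadjusted p, and how many of all probe sets had an adjusted p under 0.05 in these fits was not counted.

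Of these 18 genes, 14 had a lower mean in Pax8 +/- islets, with a median log2 difference of -0.29. None was called, and 1 had an unadjusted p of at most 0.05: Bnip1, a vesicle fusion protein of the endoplasmic reticulum, with 8.23, 7.91 and 7.78 on the Pax8 +/- arrays and 8.85, 8.94 and 8.61 on the Wt arrays. Its difference of -0.83 (standard error 0.25, adjusted p = 0.745 from limma) came from groups that did not overlap, but was smaller than 2.5-fold. Over all probe sets, 2.77% had a lower mean with an unadjusted p of at most 0.05. Groups were separate in the lower direction for 3 of the 18 and in the higher direction for 0, beside 5.14% and 4.52% of all probe sets. Besides Bnip1 these were Bcl2l13, a mitochondrial receptor, and Bcl2a1a, below background on all arrays, whose near-identical copies Bcl2a1b and Bcl2a1d may share its signal. Both were separate by a small margin. The highest Pax8 +/- and the lowest Wt array were at 7.82 and 7.87 for Bcl2l13 and at 6.21 and 6.27 for Bcl2a1a. Pro-death genes of this list (Bik, Bmf, Hrk and Bok) had log2 differences of -0.06, -0.17, -0.35 and -0.20, and only Bok was above background on any array.

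**Figure D2:**
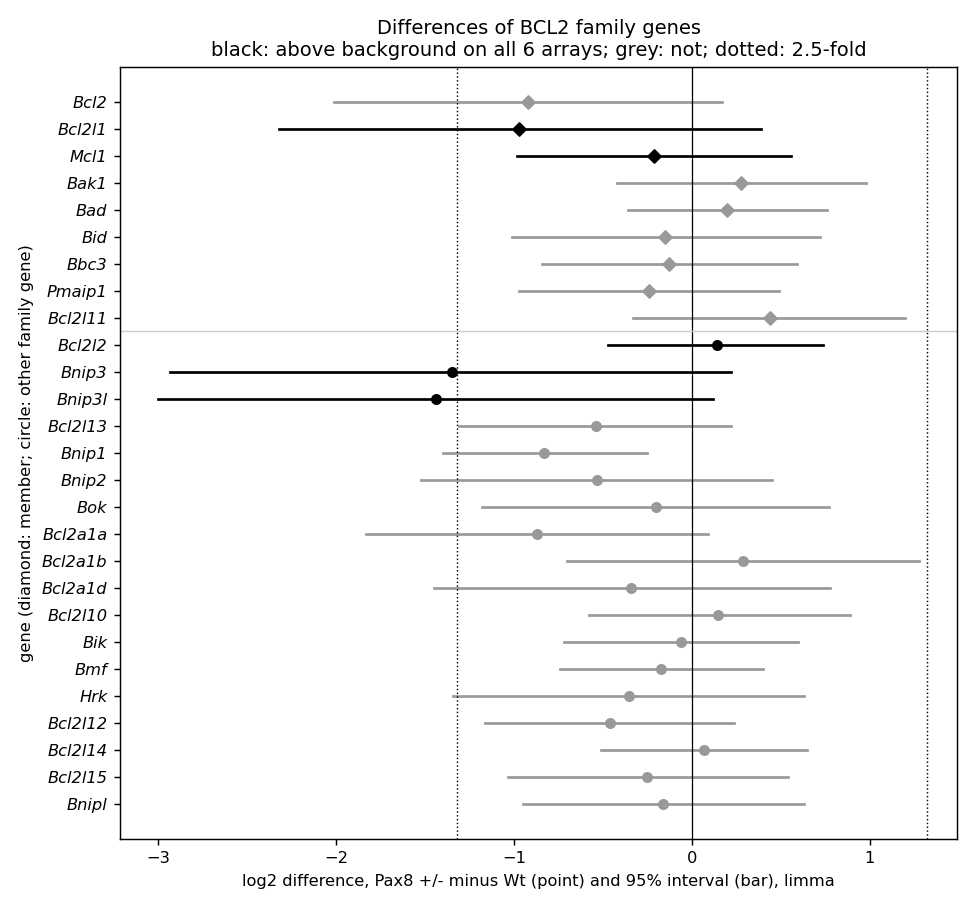
Log2 difference, Pax8 +/- minus Wt (horizontal axis), with 95% intervals from limma (bars) for the 9 members (diamonds) and the 18 further genes, of the family or named as interacting with BCL2 (circles), in black where a gene was above background on all 6 arrays and in grey elsewhere. Among the 5 black genes, the intervals of Bcl2l1, Bnip3 and Bnip3l are wide and those of Mcl1 and Bcl2l2 narrow, and all 5 include 0.

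Around the family, 89 of 94 listed genes of the apoptosis pathway were measured, those 18 included. Of the 89, 1 was called higher and 1 lower, 63 had a lower mean and 26 a higher one, and the median log2 difference was -0.20. Groups did not overlap for 8 of the 89 in the lower and 3 in the higher direction, beside 5.14% and 4.52% of all probe sets. Pax8 +/- replicates 2 and 3 were the lowest arrays for 31 of the 89 and the highest for 3. Over all probe sets these shares were 13.3% and 13.7%, and 22.5% and 20.4% among those above background on all 6 arrays.

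Among caspases and the apoptosome that activates them, 13 of 15 were measured, with a median of -0.22 and no call. At an unadjusted p of at most 0.05 were Endog, a mitochondrial nuclease at -0.83 and below background, and Htra2, a protease released with cytochrome c, at -1.0. Htra2 stood at 8.49, 7.92 and 6.96 on the Pax8 +/- arrays and 8.64, 8.80 and 8.93 on the Wt arrays, without overlap (adjusted p = 0.745 from limma). Cycs, cytochrome c itself, had a difference of -0.59, and Dffa, an inhibitor of the apoptotic nuclease, one of 0.66 below background.

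Caspase inhibitors numbered 7 measured of 7, with a median of -0.12 and no call. Birc3 (cIAP2) stood at 12.39, 9.92 and 9.17 on the Pax8 +/- arrays and at 12.68, 12.80 and 10.48 on the Wt arrays, a difference of -1.49 (standard error 0.88, adjusted p = 0.749 from limma), with Wt replicate 3 on the low side as well. Birc2 (cIAP1) was at -0.68, Xiap, which blocks the executioner caspases, at -0.59, and Cflar, which blocks caspase-8, at 0.22. Partners of the family at the outer membrane, 11 of 11 measured and all above background on every array, had a median of 0.01. Bcap31, an endoplasmic reticulum protein that caspase-8 cuts, was at -0.69 with groups that did not overlap and an unadjusted p of at most 0.05, Mtch2, the mitochondrial receptor of BID, at 0.93, Fkbp8, which anchors BCL2 and BCL-XL, at 0.54, and the co-chaperone Bag1 at -0.40.

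Of the genes that control turnover of the MCL1 protein, 5 of 6 were measured, with a median of -0.10, and Btrc was called higher. Btrc, the substrate receptor of a ubiquitin ligase with many targets besides MCL1, stood at 9.28, 10.39 and 10.13 on the Pax8 +/- arrays and at 8.60, 7.58 and 9.64 on the Wt arrays. The groups overlapped through Pax8 +/- replicate 1 and Wt replicate 3, at a difference of 1.33 (standard error 0.52, adjusted p = 0.745 from limma). The call was lost without Wt replicate 1, without Wt replicate 2 (0.82), without Pax8 +/- replicate 2, without Pax8 +/- replicate 3, under quantile normalization and without empirical Bayes moderation. The kinase Gsk3b was at -0.24, the ligase receptor Fbxw7 at -0.20 below background, and the deubiquitinase Usp9x at 0.19.

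Death receptors and their adaptors had 9 of 10 measured, a median of -0.18 and 1 gene called lower, Mlkl, whose product opens the plasma membrane in necroptosis, a form of death outside the BCL2 pathway. Mlkl stood at 10.87, 7.74 and 7.87 on the Pax8 +/- arrays and at 11.02, 12.27 and 9.65 on the Wt arrays. The difference was -2.15 (standard error 0.91, adjusted p = 0.745 from limma), within -3.17 and -1.50 over the leave-outs (-1.50 without Wt replicate 2), and this call was lost under the same 6 alternatives as that of Btrc. Tnfrsf10b, the TRAIL receptor, was at -0.87, Fas at -0.37 below background and the adaptor Fadd at 0.58.

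Regulators of BH3-only genes had 11 of 12 measured, a median of -0.24 and no call. Jun, at -1.17, had an unadjusted p of at most 0.05. Ddit3 (CHOP), which endoplasmic reticulum stress induces and which raises BIM and PUMA, stood at 12.57, 10.96 and 9.89 on the Pax8 +/- arrays and 12.63, 12.20 and 12.22 on the Wt arrays, a difference of -1.21 (standard error 0.59, adjusted p = 0.745 from limma). Its partner Trib3 was at -0.65 and the kinase Mapk9 (JNK2) at 0.51, with groups that did not overlap. Targets of p53 outside the family, 15 of 15 measured, had a median of -0.38 and no call. Cdkn1a (p21), an inhibitor of the cell cycle, stood at 15.34, 14.52 and 14.22 on the Pax8 +/- arrays and at 15.50, 15.66 and 15.41 on the Wt arrays, without overlap, at -0.83 (standard error 0.33, adjusted p = 0.745 from limma). Perp, a junction protein, was at -1.08 and Pidd1, which activates caspase-2, at 0.56 below background, and these 3 genes had an unadjusted p of at most 0.05, which the kinase Plk2, at -1.35, did not.

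**Figure D3:**
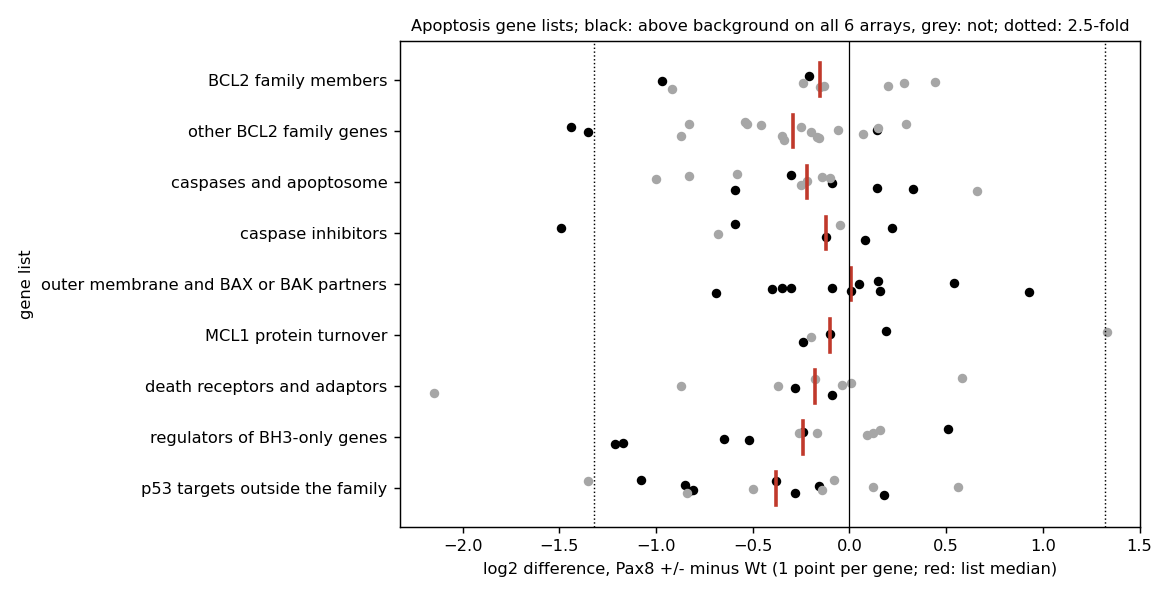
Log2 difference, Pax8 +/- minus Wt (horizontal axis), of each measured gene in the family and in 8 apoptosis gene lists, in black where a gene was above background on all 6 arrays, with list medians in red and the 2.5-fold limits dotted. List medians run from -0.38 for p53 targets to 0.01 for partners at the outer membrane.

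The genes with the profile nearest to Bcl2l1, by the root mean square difference of levels centred over the 6 arrays among 5715 probe sets, were Cabp2, a calcium-binding protein, at 0.158 log2 units, Slc30a1, a zinc exporter, at 0.193, and Eif2ak3 (PERK), a sensor of endoplasmic reticulum stress, at 0.214. Cabp2 stood at 10.65, 8.56 and 8.84 on the Pax8 +/- arrays and at 9.77, 11.06 and 10.16 on the Wt arrays, and Eif2ak3 at 13.88, 11.99 and 12.27 on the Pax8 +/- arrays and 13.64, 14.17 and 13.48 on the Wt arrays. They were picked for their likeness, so that it is a description.

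Some markers of cell types differed between arrays in the order seen for Bcl2l1, Bcl2, Bnip3 and Bnip3l. In whole islets, fewer cells of a type and less RNA per cell cannot be told apart. Of 6 endothelial markers, all measured, 2 were above background on all arrays and Tie1 and Esam on none. Pax8 +/- replicates 2 and 3 were the lowest arrays for 4 of the 6, but not for Kdr and Plvap. Their mean level was 9.23, 7.94 and 7.99 on the Pax8 +/- arrays and 9.11, 9.38 and 8.41 on the Wt arrays, and Cdh5 (VE-cadherin) alone was at 13.04, 9.56 and 9.93 on the Pax8 +/- arrays and 12.92, 13.29 and 11.47 on the Wt arrays. The mean of beta-cell markers, 9 of 10 measured, ran the other way, at 12.84, 15.17 and 15.28 on the Pax8 +/- arrays and 13.02, 11.94 and 14.21 on the Wt arrays. Pax8 +/- replicates 2 and 3 were the highest arrays for 6 of the 9, with Mafa among these below background on all arrays. They were not the highest for G6pc2, or for Ins2 and Iapp, which were near the top of the scale. Means of alpha-cell markers (3 of 5 measured) were 14.08 to 15.14 on the Pax8 +/- and 13.96 to 14.62 on the Wt arrays, and those of delta-cell markers (4 of 4 measured) 10.25 to 11.22 on the Pax8 +/- and 9.44 to 11.41 on the Wt arrays, while Ppy of PP cells was at 19.63 to 19.76 on the Pax8 +/- and 16.69 to 19.72 on the Wt arrays.

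Duct markers (4 of 6 measured) had Pax8 +/- replicates 2 and 3 as the lowest arrays for 3 of the 4, Krt19, Sox9 and Cftr, the last below background on all arrays, but not for Krt7. Sox9 was at 10.18, 7.56 and 7.09 on the Pax8 +/- arrays and 8.53, 9.82 and 8.16 on the Wt arrays, and Krt19 at 13.68, 11.38 and 11.73 on the Pax8 +/- arrays and 11.83, 14.02 and 12.00 on the Wt arrays. The duct marker mean was 10.41, 9.60 and 9.06 on the Pax8 +/- arrays and 9.56, 10.35 and 9.80 on the Wt arrays. The order also held for 2 of 5 macrophage markers, Cd14 and Csf1r, for 3 of 8 acinar markers, Cela1, Ptf1a and Rbpjl, and for Dcn among 6 mesenchymal markers. Cela1 spanned only 0.13 log2 units near the top of the scale, and Ptf1a and Rbpjl were below background on all arrays. Over all gene probe sets the order held for 13.3%. Acinar markers (8 of 9 measured, 6 above background and close to the upper end of the scale) averaged 16.22 to 16.32 on the Pax8 +/- and 16.36 to 16.57 on the Wt arrays. Macrophage markers (5 of 6 measured) averaged 4.63 to 5.42 on the Pax8 +/- and 5.02 to 5.60 on the Wt arrays, where Cd14 alone was above background, on 3 arrays, and Adgre1 and Csf1r on none. Mesenchymal markers (6 of 6 measured) averaged 3.92 to 4.79 on the Pax8 +/- and 4.18 to 4.94 on the Wt arrays, with Dcn above background on 1 array and the rest on none. Lymphocyte (5 of 6), erythroid (1 of 4) and Schwann cell (2 of 4) markers were above background on no array, with means between 3.41 and 4.33 on the Pax8 +/- and 3.42 and 5.09 on the Wt arrays. The part of cell composition in the levels of the BCL2 family was not tested.

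**Figure D4:**
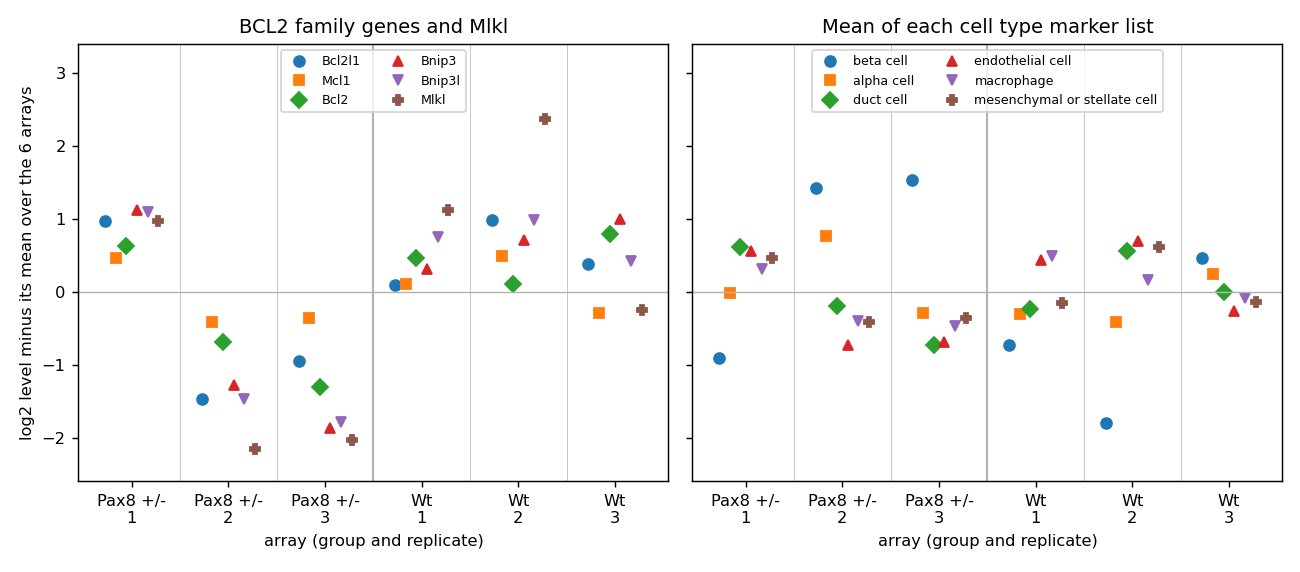
Log2 level minus its mean over the 6 arrays (vertical axis) for each array, for BCL2 family genes and Mlkl (left) and for the mean of 6 cell type marker lists (right), with the 3 Pax8 +/- arrays to the left of the 3 Wt arrays. On Pax8 +/- replicates 2 and 3 Bcl2l1, Bcl2, Bnip3 and Bnip3l are low, as is the endothelial mean, and the beta-cell mean is high.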

How the data were processed

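RNA of whole islets was measured on 6 Clariom S arrays, 3 per genotype, with genotype and replicate number taken from the labels. The authors made the deposited log2 values with RMA (named in the submitters' processing notes), which corrects background, normalizes between arrays and summarises each probe set. The Transcriptome Analysis Console is also listed there, and for neither tool did the sources used here give a version, an annotation or a build. Normalization between arrays ties levels to the bulk of probe sets, so that a shift of all RNA cannot be seen.

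Of the table, 22206 gene probe sets were tested and 5222 negative and 1418 other controls left out. Symbols came from the platform annotation, updated by Entrez number through a RefSeq table (GRCm38.p6). A single symbol was found for 19572 probe sets and 2634 are unnamed here. The brightest probe set stood for a gene.

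Groups were fitted with limma 3.58.1 in R 4.3.3 (lmFit, eBayes, 2-sided, no covariate), with Benjamini-Hochberg adjustment over all probe sets. The code was tested on simulated data. The number of arrays limits the precision. Members, lists and alternatives were chosen with earlier results of these data known. Named genes are all members, the 4 genes with the smallest p in each pathway list, family genes above background throughout, and the 3 profiles nearest to Bcl2l1. Bik, Bmf, Hrk, Bok and Bcl2l13 were added after their values were seen, as were the motifs searched. Alternatives were other moderation, array weights, normalization, filters, a replicate block, a Tukey biweight, a 2-fold limit and leaving out each array.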

Additional observations from a re-analysis of the deposited data

How the results depend on the processing

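No member was called higher, or had an adjusted p under 0.05, under any alternative run. The number called lower was 0 under every alternative with all 6 arrays and ran from 0 to 2 over the leave-outs of each array, the 2 being Bcl2 and Bcl2l1 without Pax8 +/- replicate 1. That leave-out called 597 of all 22206 gene probe sets lower and 740 higher, where the fit of all 6 arrays called 78 and 144. Against the 99th percentile of the negative controls, 0 members were above background on all 6 arrays, in place of 2. Bid was removed when the dimmest probe sets were left out and has no value there. No member had several probe sets, so that this alternative was not run.

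Directions changed for members below background alone, and for Bcl2l2. With a Tukey biweight as group average, the log2 difference of Pmaip1 was 0.07 and that of Bcl2l2 -0.03. Over the leave-outs, Bid ran from -0.43 to 0.18, Bbc3 from -0.34 to 0.09, Pmaip1 from -0.42 to 0.08 and Bcl2l2 from -0.01 to 0.24. The cause was not tested. With the replicate number as a block, 0 members were called. Between equal numbers, deviations from the group means correlated at 0.004, -0.421 and 0.139 for replicates 1, 2 and 3 over all probe sets. These values do not show whether the arrays were paired in the experiment. Between unequal numbers the correlation was 0.452 for Pax8 +/- replicate 1 with Wt replicate 2, and -0.448 with Wt replicate 3. It was 0.475 for Pax8 +/- replicate 2 with Wt replicate 3. Deviations within a group sum to 0, so that these correlations depend on each other. The source of this variation, shared across genotypes, was not tested.

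Over all probe sets the calls, 144 higher and 78 lower, were 19 and 16 without moderation, 494 and 306 with array weights, 203 and 145 with the block, 232 and 119 with the biweight, 332 and 186 at 2-fold, and from 24 to 740 and 17 to 597 over the leave-outs, the most without Pax8 +/- replicate 1. The counts with the biweight equal those that the study reported. With 3 arrays a group, the 95% intervals of Bcl2l1 and Bcl2 reach past 2-fold lower and include 0.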
